A study of Aspergillus nidulans with 6 samples.

Results

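In the filamentous fungus Aspergillus nidulans, 68 nuclear genes that were clearly expressed in wild type (WT) kept at most 0.25 times their WT transcript level in a strain lacking mcrA. They were chosen by their levels in these same libraries. A gene had to average at least 10 counts per 1000000 counts (CPM) in WT, to average at most 0.25 times that in the mcrA-deleted libraries, and to lie below every WT library in every mcrA-deleted library. The 68 genes made up 1.10% of the 6163 nuclear AN-numbered genes with a WT mean of at least 10 CPM, out of 10720 nuclear AN-numbered genes and 10983 features in all. Since their levels chose them, the levels and folds of these genes are given as a description, with no test.

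The study sequenced polyadenylated RNA from 3 libraries of strain LO8158, with the genotype mcrA-, and 3 libraries of strain LO1362, with the genotype mcrA+. Both strains grew as mycelium for 1 day at 37 °C in liquid glucose minimal medium with uridine, uracil, pyridoxine and riboflavin. The labels add that the change in LO8158 switches on secondary metabolite production. No other allele of either strain is named in the labels used here, and each genotype is 1 strain. The deletion cannot be told apart from any further way in which the strains may differ. The labels call the libraries replicates and name no separate cultures, so SDs and p-values cover only how far these libraries vary, which may be technical. In bulk RNA, fewer cells of one kind and less RNA per cell cannot be told apart.

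The gene mcrA encodes a fungal transcription factor known as a negative regulator of secondary metabolism, the making of compounds such as polyketides and small peptides. Filamentous fungi often keep the genes of one metabolic pathway side by side on a chromosome. Neighbours transcribed away from each other, called divergent, share a single intergenic region in which the promoters of both genes can lie.

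Total counts lay between 3374534 and 4926520 in the mcrA-deleted libraries and between 4739323 and 6051839 in the WT libraries, so that 1 count was worth 0.165 to 0.296 CPM. The targeted gene, mcrA (AN8694, chromosome III, 3100552 to 3102696, plus strand), had 83.0, 85.7 and 61.8 CPM in the mcrA-deleted libraries, against 142, 149 and 137 CPM in WT. It was lower in all mcrA-deleted libraries (log2 fold change -1.06 with an SE of 0.168; adjusted p = 0.00468 in edgeR's quasi-likelihood (QL) test, Benjamini-Hochberg adjustment over all features) but not empty, and at 53.8% of WT it is not among the 68. The counts do not show where in the gene those reads lay. The first principal component, with 76.5% of the variance, separated the genotypes, and the second set WT replicate 3 off from WT replicates 1 and 2. Mitochondrial reads made up 1.06% of mcrA-deleted replicate 1, against 0.0593% to 0.159% of each other library; with those features left out of the totals, 67 genes met the rule. Marker genes of spore-forming structures also differed between the genotypes. Over all tested features 16.1% rose and 13.7% fell. Of 9 asexual markers, 6 were tested, 4 rose and 0 fell, with summed levels of 63.7 to 139 CPM in mcrA-deleted libraries and 30.9 to 35.9 CPM in WT. The pigment gene yA, at 77.5% of WT, did not pass. The spore wall gene dewA had 1, 1 and 0 counts in mcrA-deleted libraries and 0 in WT, near the counting limit in both. Of 5 sexual markers, 4 were tested, 3 rose and 0 fell, with sums of 1966 to 2143 CPM in mcrA-deleted libraries and 282 to 432 CPM in WT. Of these sums esdC alone made up 1506, 1549 and 1537 CPM in mcrA-deleted libraries, and 80.6, 155 and 264 CPM in WT. The mating type gene matB had 3, 0 and 1 counts in mcrA-deleted libraries and 0 in WT, near the counting limit in both. The 3 housekeeping genes of growing hyphae summed to 7480 to 10519 CPM in mcrA-deleted libraries and 12754 to 15274 CPM in WT, and 0 of them passed the test in either direction. The glycolysis gene gpdA alone made up 7175, 7660 and 4851 CPM of these sums in mcrA-deleted libraries, and 9219, 9686 and 12692 CPM in WT. The part of these differences in the levels of the 68 genes was not tested.

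Taken as a group, the 68 genes had a median level of 5.35 CPM in the mcrA-deleted libraries and 53.8 CPM in WT. A median of 14.9% of the WT level remained, with a range of 0.644% to 24.9%. At most 1/8 of the WT level was left in 29 genes, at most 1/16 in 17 genes and at most 1/32 in 4 genes. Per kilobase of gene length, their median was 3.68 CPM in the mcrA-deleted libraries and 32.4 CPM in WT, beside 27.2 and 24.4 CPM per kilobase over all 6163 expressed genes. In WT, 21 of the 68 averaged at least 100 CPM and 5 at least 500 CPM, beside 1685 and 357 of the 6163 expressed genes.

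**Figure D1:**
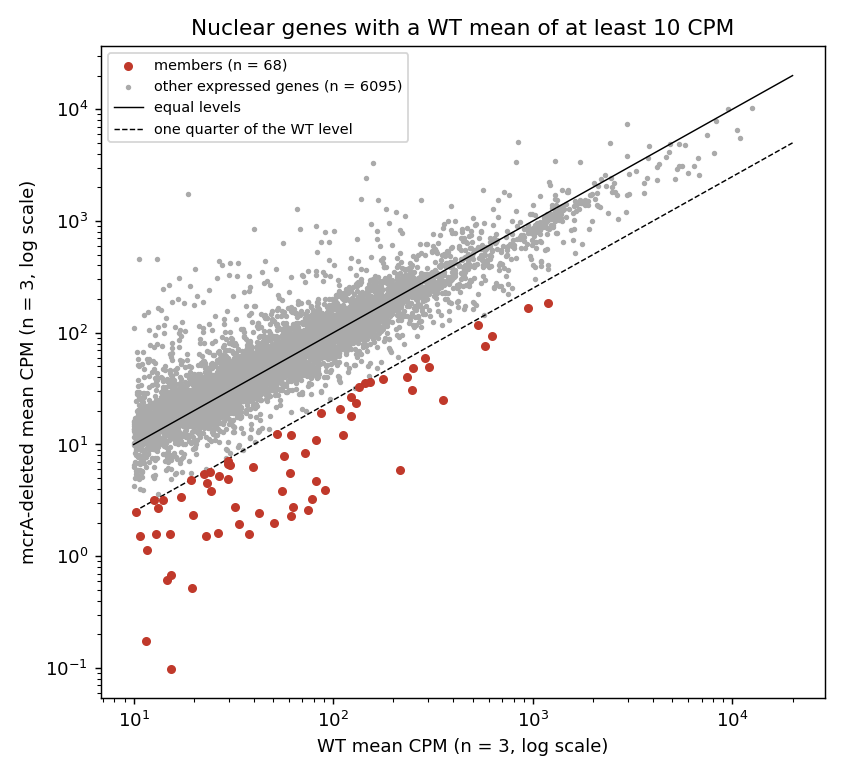
Mean level in mcrA-deleted libraries (vertical axis, CPM, log scale) against mean level in WT (horizontal axis, CPM, log scale) for the 6163 expressed nuclear genes, with 3 libraries per mean. Red points are the 68 genes, which by their choice lie on or under the dashed line at 0.25 times the WT level, over WT means of 10.2 to 1191 CPM.

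Expression was reduced rather than absent in most of the 68 genes. Only 5 averaged under 1 CPM in the mcrA-deleted libraries, 44 (those 5 included) were under 10 CPM, 21 lay between 10 and 100 CPM and 3 stayed above 100 CPM. In 4 genes at least 1 mcrA-deleted library had 0 counts, and in 0 genes were all 3 at 0. The label of genes needing mcrA is thus looser than it sounds, since reads of all 68 were counted in libraries labelled mcrA-deleted. All 68 genes passed the filter on low counts and were called lower by edgeR, beside 13.7% of the 7852 features tested; the contrast is the one that chose them, so nothing is read from that count. Complete separation of the libraries downwards, the third criterion, was found in 16.9% of the expressed genes and removed 0 genes that met the other criteria.

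Together the 68 genes took 0.170%, 0.155% and 0.0782% of all counts in mcrA-deleted replicates 1 to 3, against 0.841%, 0.928% and 0.843% in WT. The gap between the genotypes follows from the choice of the genes; among the mcrA-deleted libraries replicate 3 was the lowest.

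**Figure D2:**
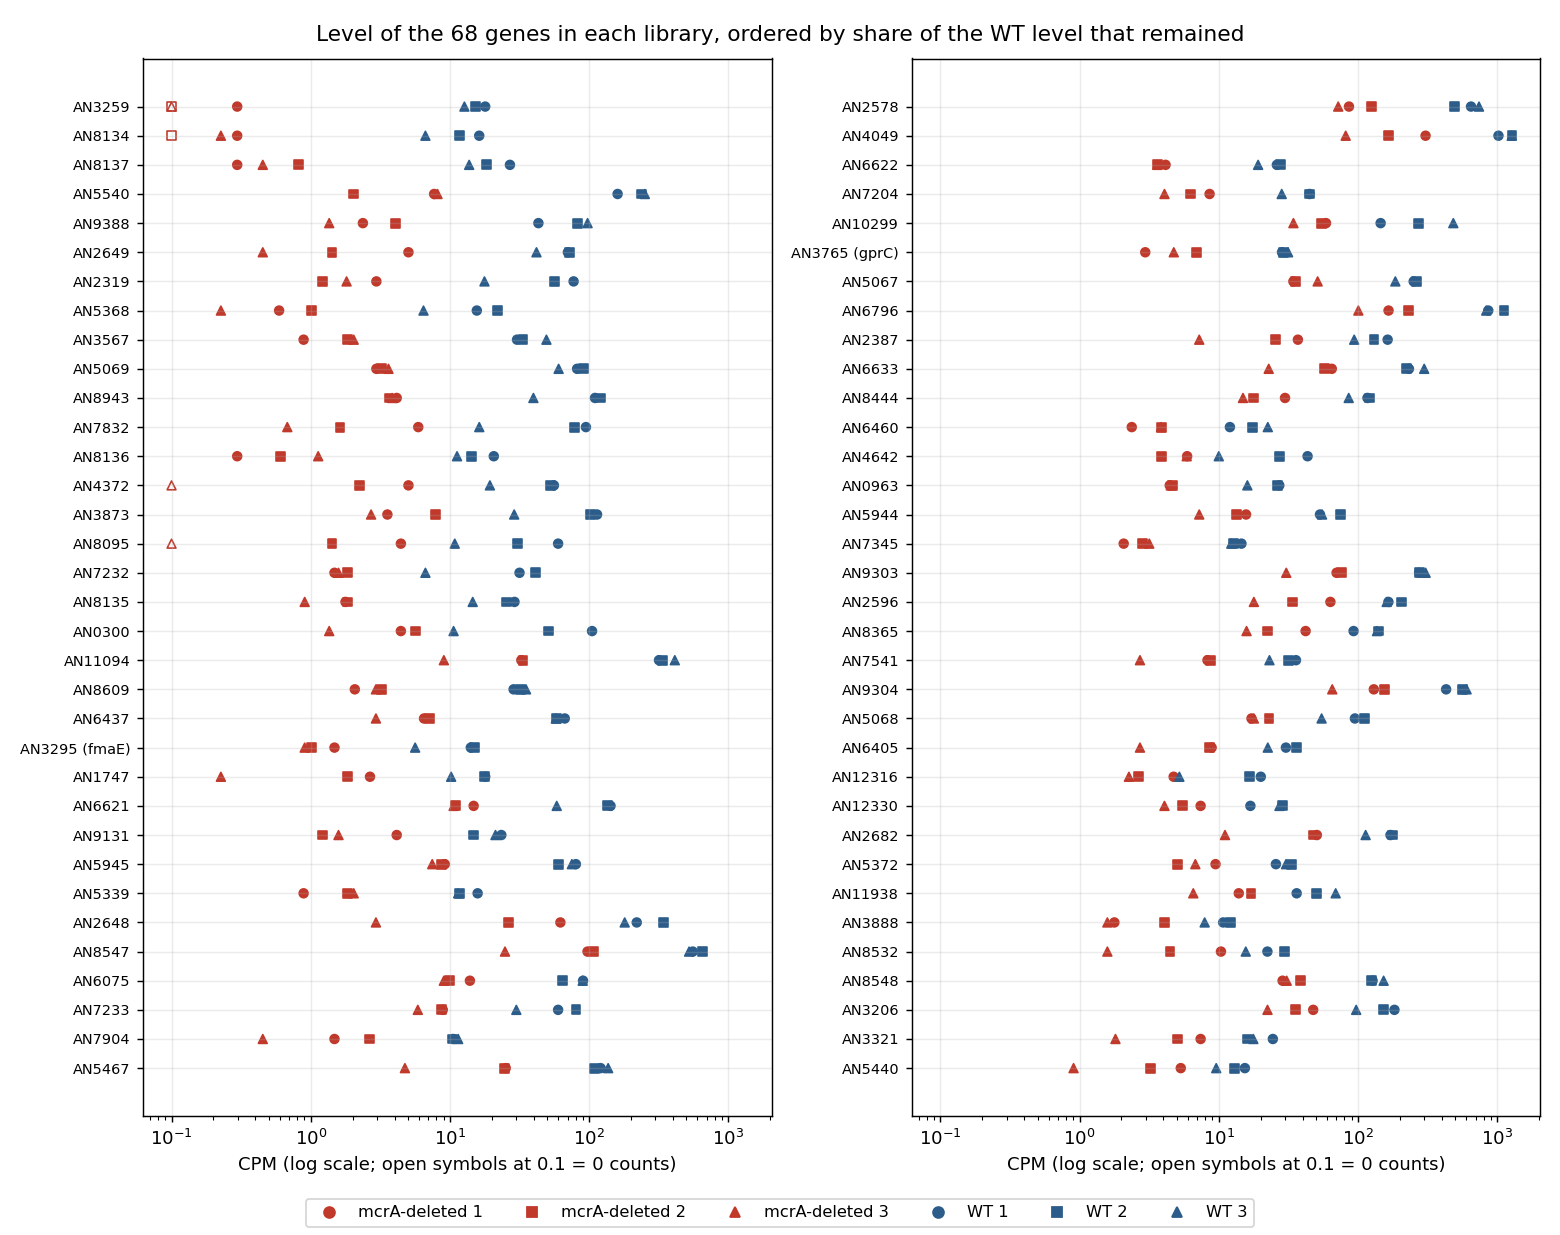
Level of each of the 68 genes (CPM, log scale) in every library, one row per gene, ordered by the share of the WT level that remained. Red symbols are the 3 mcrA-deleted libraries and blue symbols the 3 WT libraries; open symbols are 0 counts, drawn at 0.1, and in each row all red symbols lie left of all blue ones.

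The longest run of adjacent genes among the 68 was AN8134, AN8135, AN8136 and AN8137 on chromosome II (859353 to 868113, 8.761 kb). The files and the RefSeq gene table give these genes no symbol. AN8134 had 1, 0 and 1 counts in the mcrA-deleted libraries, against 77, 71 and 32 in WT. Its pooled ratio of WT to mcrA-deleted was 73.4, with an exact binomial 95% interval of 20.04 to 611. Without mcrA-deleted replicate 1 that ratio was 108 (19.1 to 4286), and without mcrA-deleted replicate 2 it was 45.0 (12.3 to 374). The gene was near the counting limit in each mcrA-deleted library. These intervals cover counting error only, not the variation between libraries, and the rule chose the gene for its low ratio.

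AN8137, at the other end of the run, had 0.296, 0.812 and 0.453 CPM in mcrA-deleted libraries, against 27.0, 18.3 and 13.8 CPM in WT, so that 2.64% remained. AN8136 had 0.296, 0.609 and 1.13 CPM in mcrA-deleted libraries, against 20.7, 14.2 and 11.3 CPM in WT, so that 4.41% remained. AN8135 had 1.78, 1.83 and 0.905 CPM in mcrA-deleted libraries, against 29.1, 25.6 and 14.6 CPM in WT, so that 6.51% remained. All 4 genes of the run had their highest WT level in replicate 1 and their lowest in replicate 3. The strands alternate along the run: AN8134 and AN8135 are divergent across 674 bases, AN8135 and AN8136 converge across 521 bases, and AN8136 and AN8137 are divergent across 285 bases.

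Neither gene beside the run was called lower. AN8133, next to AN8134, did not pass the test on few counts (log2 fold change -0.90, or -0.29 without WT replicate 3). AN8138, next to AN8137, moved the other way, averaging 16.7 ± 8.30 CPM in mcrA-deleted libraries and 2.28 ± 2.34 CPM in WT (SD, n = 3 each), a log2 fold change of 2.66 (with an SE of 0.651; adjusted p = 0.0211, Benjamini-Hochberg, edgeR QL). The call of AN8138 was lost without WT replicate 1 or without mcrA-deleted replicate 2 or 3, with edgeR adjusted p of 0.0600, 0.0626 and 0.0672 (0.000384 to 0.0672 over all alternatives), and without WT replicate 2 its log2 fold change was 3.90.

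The second run held AN5069, AN5068 and AN5067 on chromosome III (88538 to 97094, 8.557 kb), near a chromosome end. AN5069 had 2.96, 3.25 and 3.62 CPM in mcrA-deleted libraries, against 82.1, 90.9 and 60.5 CPM in WT. AN5068 had 17.2, 22.9 and 17.9 CPM in mcrA-deleted libraries, against 95.2, 112 and 54.8 CPM in WT. AN5067 had 34.4, 35.5 and 51.4 CPM in mcrA-deleted libraries, against 252, 262 and 186 CPM in WT. The share that remained thus differed along the run, with 4.21% for AN5069, 22.1% for AN5068 and 17.3% for AN5067, and mcrA-deleted replicates were close to each other. AN5068 and AN5067 are divergent across 1269 bases, and AN5069 follows AN5068 on the same strand. On one side AN5070 did not pass (log2 fold change 0.30; adjusted p = 0.426, Benjamini-Hochberg, edgeR QL), and on the other AN5066 had too few counts to be tested.

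The remaining neighbours among the 68 stood in 6 pairs. The most abundant pair was AN9303 and AN9304 on chromosome VIII (229089 to 233277), divergent across 316 bases. AN9304 had 130, 155 and 65.4 CPM in mcrA-deleted libraries, against 430, 565 and 604 CPM in WT. AN9303 had 70.2, 76.5 and 30.5 CPM in mcrA-deleted libraries, against 275, 278 and 306 CPM in WT. Both kept about the same share, 21.9% for AN9304 and 20.6% for AN9303, and both were lowest in mcrA-deleted replicate 3. Both flanking genes of this pair moved in the opposite direction. AN9302 had 19, 19 and 52 counts in mcrA-deleted libraries and 0 in all WT libraries, at least 36.8-fold higher against a floor of 3 counts over the WT group; the bound was 23.8-fold without mcrA-deleted replicate 3 and 22.5-fold without WT replicate 2. AN9305 averaged 46.4 ± 3.84 CPM in mcrA-deleted libraries and 15.2 ± 3.91 CPM in WT (SD, n = 3 each; log2 fold change 1.45 with an SE of 0.185; adjusted p = 0.00242, Benjamini-Hochberg, edgeR QL). AN9305 shares 697 bases with AN9304 on the opposite strand, and how the counting treated strand is not stated in these sources, so reads from those bases may come from AN9304 or from AN9305.

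AN8547 and AN8548 on chromosome V (824807 to 830812) are divergent across 2006 bases. AN8547 had 97.5, 108 and 24.9 CPM in mcrA-deleted libraries, against 556, 649 and 523 CPM in WT. AN8548 had 28.7, 38.8 and 30.8 CPM in mcrA-deleted libraries, against 127, 125 and 153 CPM in WT. The low value of mcrA-deleted replicate 3 was seen in AN8547 and not in AN8548, so the pair did not vary together between libraries. Of their WT levels, 13.3% of AN8547 and 24.2% of AN8548 remained.

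AN2649 and AN2648 on chromosome VI (3263154 to 3267770) are divergent across 1184 bases and differed most of the 6 pairs between mcrA-deleted libraries. AN2649 had 5.04, 1.42 and 0.453 CPM in mcrA-deleted libraries, against 70.5, 72.7 and 41.9 CPM in WT. AN2648 had 62.2, 26.4 and 2.94 CPM in mcrA-deleted libraries, against 220, 340 and 180 CPM in WT. Both genes were highest in mcrA-deleted replicate 1 and lowest in mcrA-deleted replicate 3, and that spread carried their means: the log2 ratio of mean CPM was -4.74 for AN2649 and -3.02 for AN2648, and without mcrA-deleted replicate 1 it was -6.04 and -4.07. Neither flanking gene, AN2650 nor AN2647, passed the test (log2 fold changes 0.36 and 0.23).

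In the other 3 pairs the levels were moderate. AN6621 and AN6622 on chromosome I are divergent across 521 bases; AN6621 averaged 12.1 ± 2.33 CPM in mcrA-deleted libraries and 113 ± 46.8 CPM in WT, and AN6622 averaged 3.81 ± 0.296 CPM in mcrA-deleted libraries and 24.4 ± 4.63 CPM in WT (SD, n = 3 each). AN7233 and AN7232 on chromosome IV are divergent across 1587 bases; AN7232 had 1.48, 1.83 and 1.58 CPM in mcrA-deleted libraries, against 31.7, 41.1 and 6.67 CPM in WT, where replicate 3 stood far below the others. AN7233 showed the same low WT replicate 3, with 8.89, 8.73 and 5.88 CPM in mcrA-deleted libraries, against 59.9, 80.6 and 30.0 CPM in WT. AN5945 and AN5944 on chromosome I lie in tandem 2822 bases apart. AN5945 averaged 8.46 ± 0.890 CPM in mcrA-deleted libraries and 72.1 ± 10.2 CPM in WT, and AN5944 averaged 12.1 ± 4.38 CPM in mcrA-deleted libraries and 61.3 ± 12.2 CPM in WT (SD, n = 3 each). Beside AN5944, AN5943 was also lower, at 14.04 ± 9.65 CPM in mcrA-deleted libraries and 34.5 ± 10.8 CPM in WT (log2 fold change -1.49 with an SE of 0.465; adjusted p = 0.0472, Benjamini-Hochberg, edgeR QL), a call that 4 of the 6 leave-one-out fits lost; without mcrA-deleted replicate 3 the log2 fold change was -2.19. One gene further on, AN5942, named after its values were seen, averaged 1062 ± 833 CPM in mcrA-deleted libraries and 7.24 ± 4.40 CPM in WT (log2 fold change 6.97, or 6.20 without mcrA-deleted replicate 3).

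**Figure D3:**
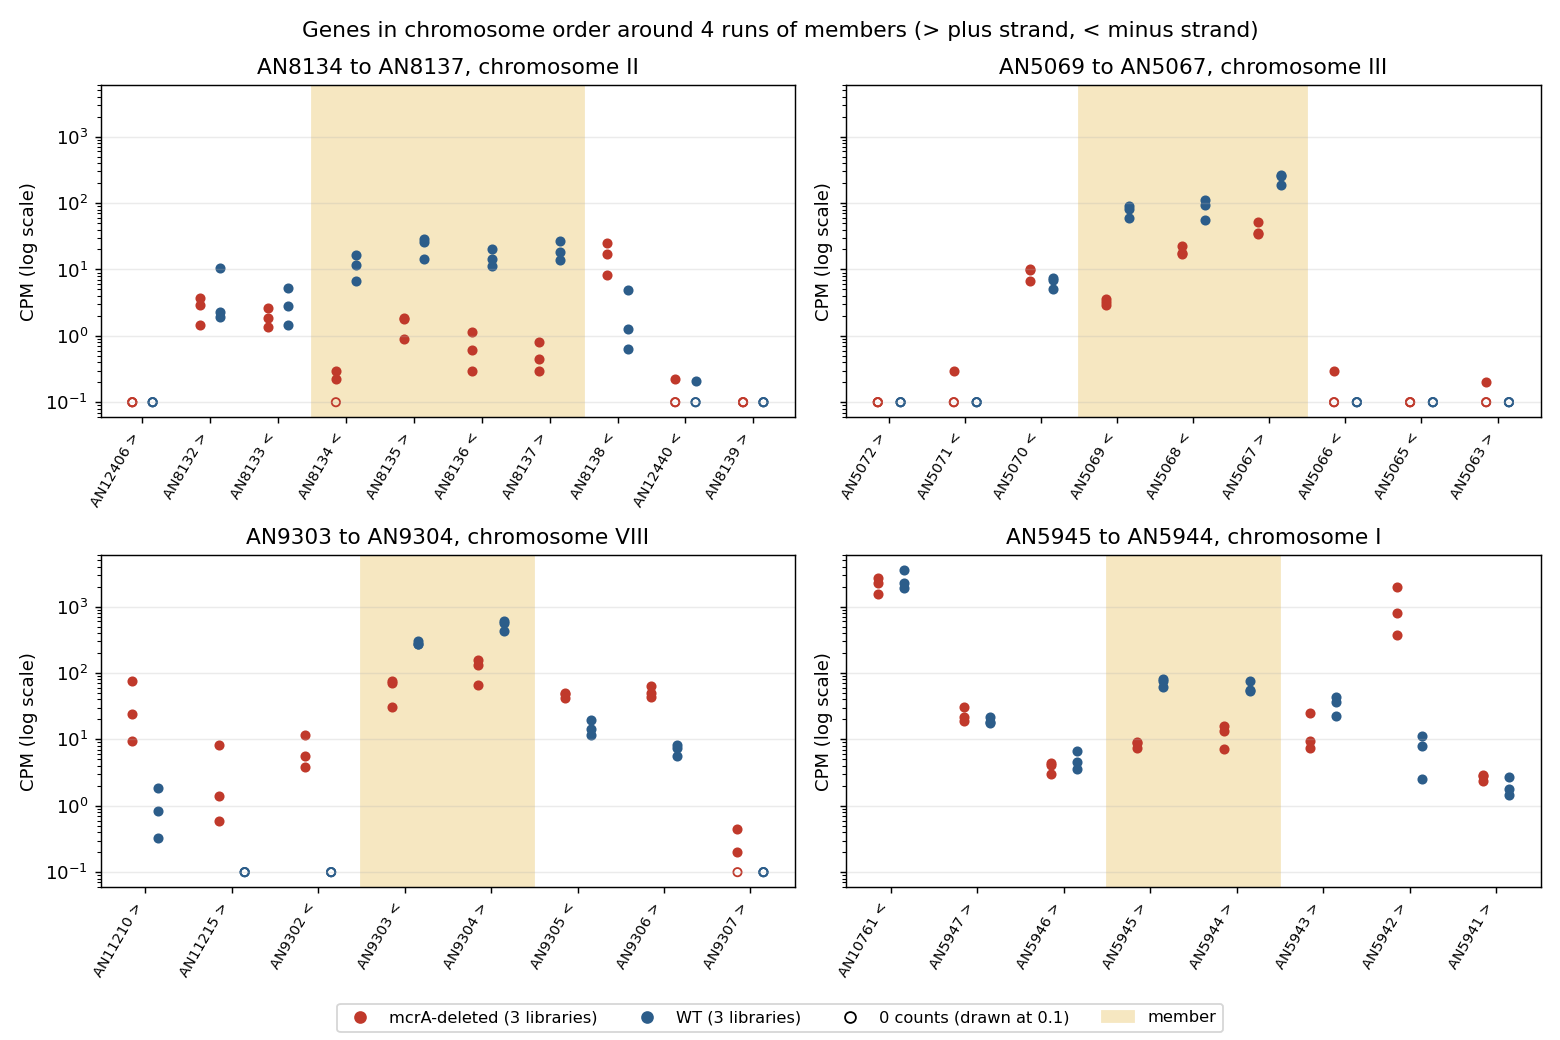
Level (CPM, log scale) of the genes in chromosome order around 4 of the 8 runs, with mcrA-deleted libraries in red and WT libraries in blue, 3 of each; open symbols are 0 counts, drawn at 0.1, and the signs after the names give the strand. The shaded genes are among the 68; beside AN9303 and AN9304 the flanking genes AN9302 and AN9305 were higher in mcrA-deleted libraries, whereas AN5070 beside AN5069 overlapped between the genotypes.

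In all, 19 of the 68 genes stood next to another of them, in 8 runs, and 49 stood alone. These runs hold 11 adjacent pairs, and 8 of the 11 were divergent, 2 in tandem and 1 convergent. Divergent pairs were thus 72.7% of the member pairs. They were 27.4% of all 10712 adjacent pairs of nuclear genes, and 31.3% of the 4551 pairs in which both genes had a WT mean of at least 10 CPM. The gap between divergent members was 285 to 2006 bases with a median of 929 bases. That median was 568 bases over all divergent pairs. It was 358 bases over divergent pairs in which both genes had a WT mean of at least 10 CPM. The orientation was not used by the rule, and 11 pairs are few. Under the other thresholds tried for the rule, and with any single library left out, the divergent share lay between 58.3% and 75%.

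**Figure D4:**
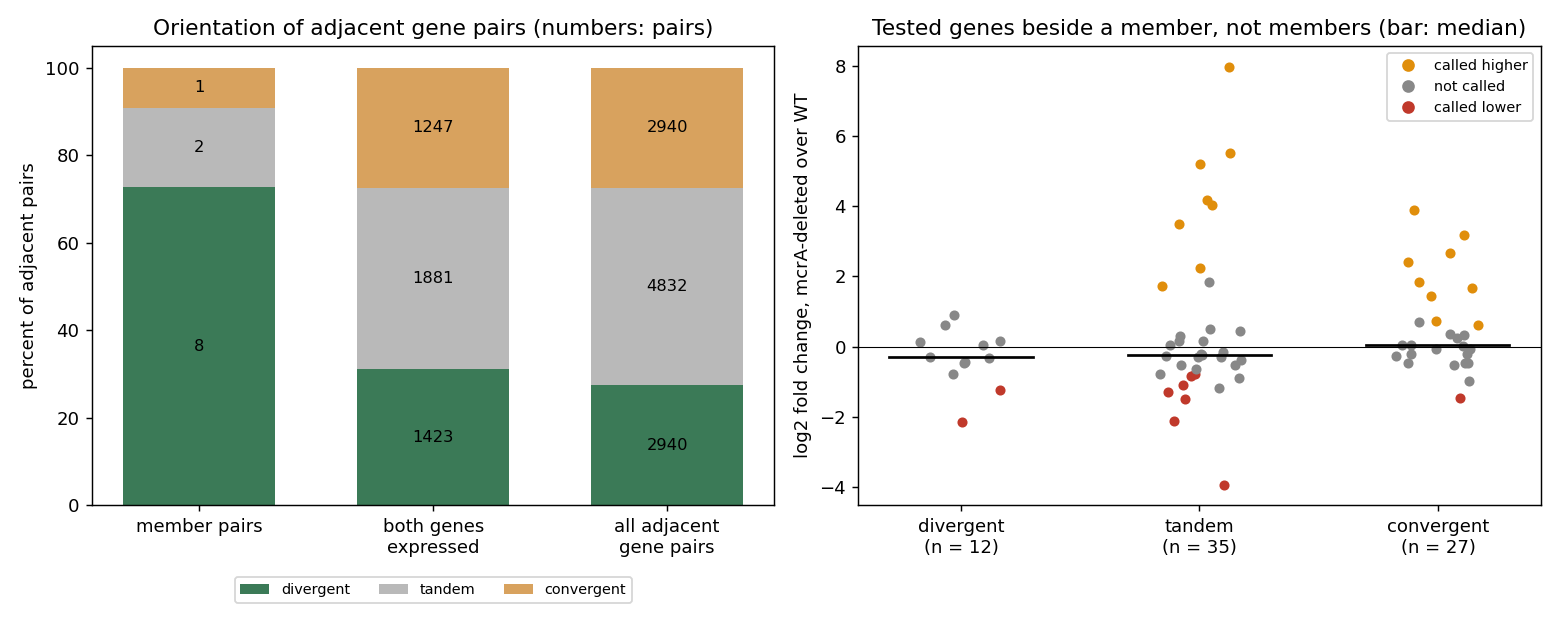
Left, the percent of adjacent gene pairs that are divergent, tandem or convergent among the 11 pairs of members, among 4551 pairs with both genes expressed and among all 10712 pairs; numbers in the bars are pairs, and divergent pairs fill 72.7%, 31.3% and 27.4%. Right, the log2 fold change (mcrA-deleted over WT) of the 74 tested genes that lie beside a member without being one, by orientation, with bars at the medians -0.31, -0.23 and 0.05; the highest point, AN9302, had 0 counts in WT, so its fitted value is no bound.

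Neighbours that met the rule count among the 68, of which 19 stood next to another, so their falls are missing from the counts below. The genes directly beside the 68, but not among them, showed both falls and rises. Of 114 such genes 74 were tested. Of these, 10 fell (13.5%), 17 rose (23.0%) and the rest did not pass, with a median log2 fold change of -0.08 (edgeR's test with Benjamini-Hochberg adjusted p under 0.05). Among all nuclear genes outside the 68, 13.0% of those tested fell and 16.2% rose. The share that rose was not particular to direct neighbours. Of tested genes 2, 3, 4 and 5 genes away, 18.7%, 19.4%, 21.6% and 14.7% rose, and 9.33%, 13.4%, 9.46% and 7.35% fell. Counting only neighbours with a WT mean of at least 10 CPM, 9 of 46 fell (19.6%) and 8 rose (17.4%), beside 15.8% and 11.6% of all expressed genes outside the 68. By orientation, 12 divergent neighbours were tested, of which 2 fell and 0 rose. Of 35 tested tandem neighbours 7 fell and 8 rose. Of 27 tested convergent neighbours 1 fell and 9 rose. Among the convergent genes that rose, AN9132, AN1746, AN2358 and AN9305 overlap their member on the opposite strand and are counted again with the overlaps below. The calls of AN8138 and AN9132 were each lost in 3 of the 6 leave-one-out fits, and that of AN1746 in 1. Over all orientations, 8 fell and 11 rose without WT replicate 1, 6 fell and 11 rose without WT replicate 2, and leaving out mcrA-deleted replicate 2 gave 6 falls and 12 rises.

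Some of the 68 lay between or beside genes that moved strongly the other way; those named in this paragraph and the next were chosen after their values were seen. AN0963 on chromosome VIII (1943188 to 1944933) had 4.45, 4.67 and 4.53 CPM in mcrA-deleted libraries, against 27.2, 26.3 and 16.1 CPM in WT. Its tandem neighbour AN0964, 540 bases away, averaged 457 ± 123 CPM in mcrA-deleted libraries and 10.6 ± 11.5 CPM in WT (log2 fold change 5.20 with an SE of 0.930, or 6.47 without WT replicate 3; adjusted p = 0.00710, Benjamini-Hochberg, edgeR QL). AN5372 on chromosome V averaged 7.12 ± 2.22 CPM in mcrA-deleted libraries and 29.8 ± 3.78 CPM in WT, while AN5373, 693 bases away in tandem, had 11.9, 20.1 and 72.6 CPM in mcrA-deleted libraries, against 1.06, 0.330 and 0.625 CPM in WT (log2 fold change 5.51, or 4.44 without mcrA-deleted replicate 3). AN2387 on chromosome VII lay between a gene of each kind. It had 37.0, 25.6 and 7.24 CPM in mcrA-deleted libraries, against 164, 130 and 94.0 CPM in WT. On one side AN2386 averaged 7.53 ± 1.97 CPM in mcrA-deleted libraries and 29.0 ± 3.18 CPM in WT (log2 fold change -2.13 with an SE of 0.251; adjusted p = 0.00194, Benjamini-Hochberg, edgeR QL). On the other AN2388 averaged 105 ± 20.3 CPM in mcrA-deleted libraries and 8.18 ± 5.26 CPM in WT (log2 fold change 3.48 with an SE of 0.485; adjusted p = 0.00310, Benjamini-Hochberg, edgeR QL). In all, 16 of the 68 genes stood beside a gene that rose and 9 beside a gene outside the 68 that fell. The second count leaves out neighbours that met the rule. Of the tested neighbours 23.0% rose and 13.5% fell, beside 16.2% and 13.0% of all tested nuclear genes outside the 68.

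Of those neighbours that fell, AN2683, divergent from AN2682 on chromosome VI across 2912 bases, came closest to joining the 68. It averaged 32.3 ± 16.8 CPM in mcrA-deleted libraries and 128 ± 25.9 CPM in WT, or 25.2%. AN2682 itself had 50.7, 47.5 and 11.1 CPM in mcrA-deleted libraries, against 171, 176 and 114 CPM in WT, or 23.7%. Both genes of this pair were lowest in mcrA-deleted replicate 3. AN5542, beside AN5540 on chromosome V, averaged 0.663 CPM in mcrA-deleted libraries and 9.38 CPM in WT, and so missed the WT minimum. Its WT counts of 17, 20 and 102 lay mostly in replicate 3, and 4 of the 6 leave-one-out fits lost its call. Its log2 fold change was -3.93, or -2.37 without WT replicate 3; leaving out mcrA-deleted replicate 3 gave -5.35.

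Among genes outside the runs, the lowest remaining share was that of AN3259 on chromosome VI (1312021 to 1313587, minus strand). It had 1, 0 and 0 counts in mcrA-deleted libraries, against 85, 93 and 61 in WT. The pooled ratio of WT to mcrA-deleted was 195 (exact binomial 95% interval 34.7 to 7735). It was 119 (21.2 to 4739) without mcrA-deleted replicate 2 and 127 (22.6 to 5048) without mcrA-deleted replicate 3. Without mcrA-deleted replicate 1, which held its single read, the gene was at least 47.8-fold lower against a floor of 3 counts over the group. Here too the intervals and the floor cover counting error only, and the rule chose the gene for its low ratio.

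AN5540 on chromosome V (2466983 to 2469028) combined a high WT level with a low remaining share. It had 7.70, 2.03 and 8.15 CPM in mcrA-deleted libraries, against 160, 238 and 252 CPM in WT, so that 2.75% remained. AN9388 on chromosome VIII (487692 to 489243) had 2.37, 4.06 and 1.36 CPM in mcrA-deleted libraries, against 43.3, 82.3 and 97.6 CPM in WT, so that 3.49% remained. In both genes WT replicate 1 was the lowest WT library, unlike in the run on chromosome II. That library still lay 19.7 times above the highest mcrA-deleted library for AN5540 and 10.7 times above it for AN9388.

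AN2319 on chromosome VII (3544174 to 3545424) had 2.96, 1.22 and 1.81 CPM in mcrA-deleted libraries, against 77.4, 56.2 and 17.7 CPM in WT. AN5368 on chromosome V (3025383 to 3026368) had 0.593, 1.01 and 0.226 CPM in mcrA-deleted libraries, against 15.6, 22.0 and 6.46 CPM in WT. AN3567 on chromosome II (3742204 to 3744064) had 0.889, 1.83 and 2.04 CPM in mcrA-deleted libraries, against 30.4, 33.5 and 49.4 CPM in WT. About the same share remained in these genes, 3.96% for AN2319, 4.16% for AN5368 and 4.19% for AN3567, although WT replicate 3 was the lowest WT library in AN2319 and AN5368 and the highest in AN3567. AN2319 shares 951 of its 1251 bases with AN12123 on the opposite strand, which had 0 counts in WT.

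The genes most abundant in WT kept shares nearer the median of the 68. AN4049 on chromosome II (2239317 to 2240522) had 306, 166 and 81.7 CPM in mcrA-deleted libraries, against 1023, 1278 and 1273 CPM in WT. AN6796 on chromosome I (3199161 to 3200155) had 166, 232 and 101 CPM in mcrA-deleted libraries, against 864, 1122 and 835 CPM in WT. AN2578 on chromosome VII (4414504 to 4415705) had 86.2, 124 and 72.2 CPM in mcrA-deleted libraries, against 650, 492 and 741 CPM in WT. Of the WT level, 15.5% remained for AN4049, 17.7% for AN6796 and 15.02% for AN2578, and the transcripts were still plentiful in the mcrA-deleted libraries. Per kilobase, AN4049 averaged 153 CPM, AN6796 167 CPM and AN2578 78.4 CPM in mcrA-deleted libraries, above the median of 27.2 CPM per kilobase over the expressed genes there.

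AN11094 on chromosome III (3253831 to 3255126) had 32.6, 33.5 and 9.05 CPM in mcrA-deleted libraries, against 318, 338 and 413 CPM in WT, and at 7.03% kept the smallest share among the 10 genes highest in WT. AN10299 on chromosome VII (3673638 to 3675768) had 59.0, 54.8 and 34.4 CPM in mcrA-deleted libraries, against 146, 274 and 485 CPM in WT. AN6633 on chromosome I (2683624 to 2684651) had 64.9, 57.6 and 22.9 CPM in mcrA-deleted libraries, against 233, 224 and 299 CPM in WT. In these genes WT replicate 3 was the highest and mcrA-deleted replicate 3 the lowest library.

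Of the 68 genes 65 had an entry in the RefSeq gene table and 2 had a symbol there, which is 2.94%, against 11.1% of the expressed genes. The first is gprC (AN3765, chromosome II, 3127788 to 3129184, plus strand), which encodes a G protein-coupled receptor, a membrane protein that passes outside signals to the cell's G proteins. It had 2.96, 6.90 and 4.75 CPM in mcrA-deleted libraries, against 28.5, 29.2 and 31.5 CPM in WT. The means were 4.87 ± 1.97 CPM in mcrA-deleted libraries and 29.7 ± 1.55 CPM in WT (SD, n = 3 each), and 16.4% remained. WT libraries were close to each other here, with WT replicate 3 no lower than the others.

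For comparison, gprD (AN3387), a receptor gene known as a repressor of sexual development in this fungus, had 17.8, 12.8 and 23.8 CPM in mcrA-deleted libraries, against 46.4, 45.9 and 52.3 CPM in WT. It also fell, by less than gprC (log2 fold change -1.60 with an SE of 0.232; adjusted p = 0.00352, Benjamini-Hochberg, edgeR QL); the difference between the genes was not tested. A further receptor gene, gprM (AN6680), averaged 62.9 ± 8.68 CPM in mcrA-deleted libraries and 49.9 ± 8.52 CPM in WT and did not pass (log2 fold change 0.17 with an SE of 0.165; adjusted p = 0.462, Benjamini-Hochberg, edgeR QL). These receptor genes were chosen for their symbols after the data were seen.

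The other symbol is fmaE (AN3295, chromosome VI, 1205046 to 1206060, minus strand), a name taken from the fumagillin cluster of Aspergillus fumigatus. It had 1.48, 1.01 and 0.905 CPM in mcrA-deleted libraries, against 14.1, 15.04 and 5.63 CPM in WT, so that 9.77% remained and WT replicate 3 was the lowest WT library. Genes with related symbols, likewise chosen after the data were seen, lay on other chromosomes or far away on chromosome VI. Of these, fmaG (AN3394) rose, averaging 61.7 ± 19.1 CPM in mcrA-deleted libraries and 8.91 ± 9.04 CPM in WT (log2 fold change 2.58 with an SE of 0.694; adjusted p = 0.0289, Benjamini-Hochberg, edgeR QL). The polyketide synthase gene fma-PKS (AN7084) also rose, with 15, 17 and 37 counts in mcrA-deleted libraries and 0, 3 and 8 in WT (log2 fold change 2.69 with an SE of 0.800; adjusted p = 0.0409, Benjamini-Hochberg, edgeR QL). Without WT replicate 3 these log2 fold changes were 3.88 for fmaG and 4.07 for fma-PKS, and of the 6 leave-one-out fits 3 lost the call of fmaG and 5 that of fma-PKS. The remaining 2, fma-AT (AN7083) and fmaF (AN6818), had too few counts to be tested.

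A few genes had the rule met narrowly. At the WT minimum stood AN3888 with 10.2, AN7904 with 10.8 and AN8134 with 11.5 CPM in WT, and just outside it AN5542 with 9.38, AN2392 with 9.37 and AN8026 with 7.49 CPM. AN2392 on chromosome VII had 0 counts in every mcrA-deleted library, against 53, 52 and 40 in WT, fewer mcrA-deleted counts than any of the 68 had. At the limit on the ratio stood AN5440 with 24.9%, AN3321 with 24.5% and AN3206 with 24.4% of the WT level, and just outside it AN2683 with 25.2%, AN12084 with 25.3% and AN6750 with 25.4%. For AN5440 the log2 ratio of mean CPM was -2.004, and without mcrA-deleted replicate 1 it was -2.61; without mcrA-deleted replicate 3 it was -1.56, which is outside the rule. That of AN7904 was -2.83, and -3.48 without mcrA-deleted replicate 2. With any single library left out, the rule gave 58 to 76 genes, of which 53 to 66 were among the 68.

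The libraries differed among themselves more in the 68 genes than in most genes. Their median coefficient of variation was 42.6% over the mcrA-deleted libraries and 23.2% over the WT libraries, beside 13.5% and 16.3% over all expressed genes. Their levels in the mcrA-deleted libraries were also lower, with a median of 5.35 CPM against 54.9 CPM over all expressed genes, and the part of this in the variation was not tested. The median share of the WT mean was 17.0%, 15.3% and 9.02% in mcrA-deleted replicates 1 to 3, against 109%, 110% and 79.0% in WT replicates 1 to 3. In 46 of the 68 genes (67.6%) mcrA-deleted replicate 3 was the lowest library of its group, which held for 30.2% of all expressed genes. With TMM-scaled library sizes, in which composition differences are allowed for, these shares were 72.1% and 40.3%.

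**Figure D5:**
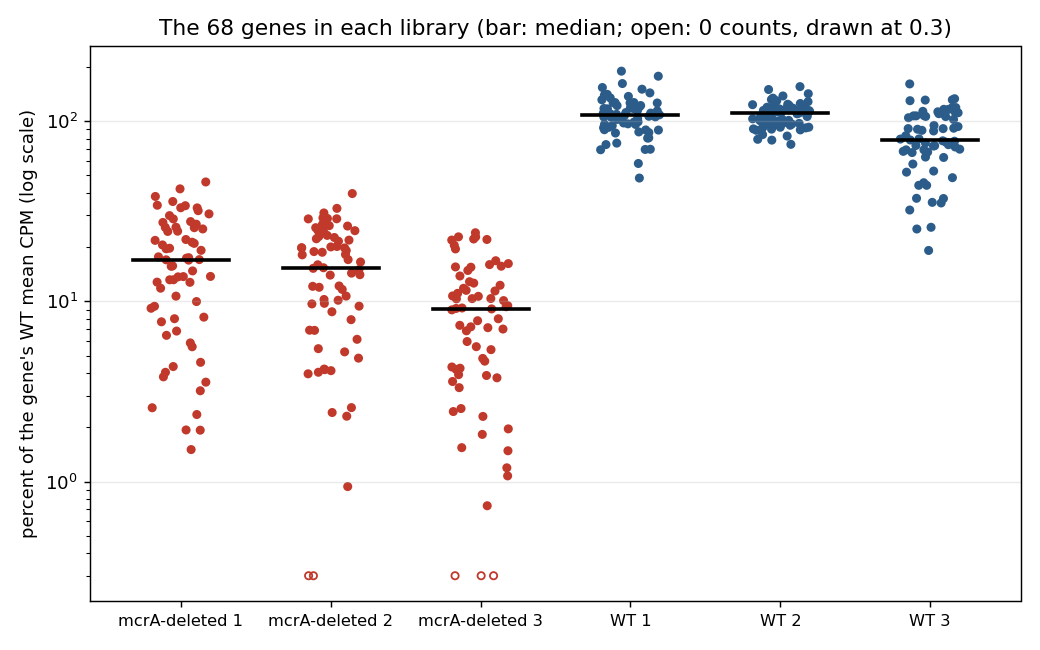
Level of each of the 68 genes in each library as a percent of its WT mean CPM (log scale), with black bars at the medians of 17.0%, 15.3% and 9.02% in the mcrA-deleted libraries (red) and 109%, 110% and 79.0% in the WT libraries (blue). Open symbols are 0 counts, drawn at 0.3; mcrA-deleted replicate 3 and WT replicate 3 each hold the lowest median of their group.

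WT replicate 3 was the lowest WT library in 43 of the 68 genes (63.2%), close to the 61.4% over all expressed genes. The size of the gap was less alike. In 15 of the 68 genes (22.1%) WT replicate 3 held at most 1/2 of the mean of WT replicates 1 and 2, against 2.97% of all expressed genes; with TMM-scaled library sizes the shares were 20.6% and 1.31%. The extremes, named after their values were seen, were AN0300 and AN10299. AN0300 on chromosome VIII had 4.45, 5.68 and 1.36 CPM in mcrA-deleted libraries, against 105, 50.9 and 10.6 CPM in WT, where replicate 3 held 0.136 times the mean of the others. AN10299 was on the opposite side, with WT replicate 3 at 2.31 times that mean. For AN0300 the log2 ratio of mean CPM was -3.86, and -3.01 without WT replicate 1.

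Further genes whose means leaned on single libraries, also named after their values were seen, were AN7832, AN4372, AN8095 and AN3873. AN7832 on chromosome IV had 5.93, 1.62 and 0.679 CPM in mcrA-deleted libraries, against 94.95, 78.3 and 16.3 CPM in WT, with a log2 ratio of -4.53, or -5.78 without mcrA-deleted replicate 1. AN4372 on chromosome III had 5.04, 2.23 and 0 CPM in mcrA-deleted libraries, against 55.9, 52.5 and 19.4 CPM in WT, with a log2 ratio of -4.14, or -5.25 without mcrA-deleted replicate 1. AN8095 on chromosome II had 4.45, 1.42 and 0 CPM in mcrA-deleted libraries, against 59.9, 30.6 and 10.8 CPM in WT. Its log2 ratio was -4.11, or -5.57 without mcrA-deleted replicate 1; leaving out WT replicate 1 gave -3.40. AN3873 on chromosome II had 3.56, 7.92 and 2.72 CPM in mcrA-deleted libraries, against 114, 102 and 29.0 CPM in WT, with a log2 ratio of -4.11, or -4.71 without mcrA-deleted replicate 2. In all 4 genes WT replicate 3 was the lowest WT library and mcrA-deleted replicate 3 the lowest mcrA-deleted library, yet every WT value lay above every mcrA-deleted value.

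In a few genes the libraries of 1 genotype lay close together. AN8943 on chromosome VII had 4.15, 3.65 and 3.85 CPM in mcrA-deleted libraries, against 110, 121 and 39.8 CPM in WT. AN8609 on chromosome III had 2.07, 3.25 and 2.94 CPM in mcrA-deleted libraries, against 28.7, 32.2 and 35.2 CPM in WT. AN6437 on chromosome I had 6.52, 7.10 and 2.94 CPM in mcrA-deleted libraries, against 66.9, 58.5 and 57.7 CPM in WT. The mcrA-deleted libraries of AN8943, and the WT libraries of AN8609 and AN6437, lay within a narrow range. These genes too were chosen after their values were seen.

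The 68 genes were shorter and nearer to chromosome ends than other expressed genes. Their median length was 1591 bases, against 1895 bases over all expressed genes, and 1 of them was at least 3000 bases long, against 1155 of the expressed genes. Their median distance to the start of the chromosome's coordinates or the end of its last feature, whichever was nearer, was 642 kb, against 1092 kb. Within 300 kb of an end lay 21 of them (30.9%), against 6.88% of the expressed genes, while 0 lay within 50 kb, where 18 expressed genes (0.292%) did. All 8 chromosomes held some, between 5 on chromosome VIII and 12 on chromosome II. As a share of the expressed genes of a chromosome they ranged between 0.457% on chromosome VIII and 2.06% on chromosome V. The plus strand held 33 of the 68.

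Overlap with another feature concerned 13 of the 68 genes (19.1%), against 23.4% of the expressed genes, and the partner was on the opposite strand each time. Of the 13 partners 0 fell, 4 rose, 8 did not pass and 1 was not tested. Among all tested nuclear genes outside the 68, 13.0% fell and 16.2% rose, and nothing is read from so few partners. Among these 13 genes, AN9131 shared 22 bases with AN9132, AN1747 shared 70 bases with AN1746 and AN10299 shared 197 bases with AN2358; all 3 partners rose, by log2 fold changes of 0.61 for AN9132, 0.72 for AN1746 and 1.66 for AN2358 (edgeR's test with Benjamini-Hochberg adjusted p under 0.05). Of the 6 leave-one-out fits, 3 lost the call of AN9132 and 1 that of AN1746.

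Of 115 genes in 20 lists of known A. nidulans loci, 0 were among the 68. The lists cover development, nitrogen, carbon, iron and stress functions and metabolite clusters, and 77 of their genes had a WT mean of at least 10 CPM; at the 1.10% of expressed genes that met the rule, so few genes could hold none, and nothing is read from it. Of the 101 that were tested, 16 fell, 30 rose and 55 did not pass, beside 13.7% lower and 16.1% higher over all tested features. Their median log2 fold change was 0.27, beside 0.00 over all tested features. In glycolysis 4 of 7 tested genes fell, with a median of -0.86, among them the glucokinase gene glkA (log2 fold change -1.51 with an SE of 0.255; adjusted p = 0.00585, Benjamini-Hochberg, edgeR QL). In nitrate assimilation 1 of 6 fell, the nitrate transporter gene crnA (-1.61 with an SE of 0.349; adjusted p = 0.0138, Benjamini-Hochberg, edgeR QL). In proline use 1 of 4 fell and 1 rose. The rise was that of prnC (log2 fold change 2.29 with an SE of 0.356, adjusted p = 0.00433, Benjamini-Hochberg, edgeR QL). The fall was that of the proline permease gene prnB (-1.97 with an SE of 0.497, adjusted p = 0.0233, Benjamini-Hochberg, edgeR QL). That was the lowest log2 fold change of any listed gene. Of the 6 leave-one-out fits, 4 lost the call of prnB and 1 that of crnA. In the emericellamide cluster, whose product joins a peptide and a polyketide, 4 of 4 tested genes rose. Rises without a fall were also found in sexual development (5 of 6 tested genes), asexual development (4 of 10) and ethanol use (3 of 4).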

How the data were processed

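Polyadenylated RNA was sequenced from 3 mcrA-deleted and 3 WT libraries of A. nidulans. The values the authors deposited are raw read counts, 1 for each feature in each library, not normalized. The submitters' processing notes name CASAVA and HISAT (version 1). The kit was directional per the labels' protocols; how reads were counted, whether by strand, what was done with reads of several hits, and on which genome build, is not given in these sources. Coordinates are those of the files. Gene symbols came from the RefSeq table of ASM1142v1, which matched 10029 features, and from listed loci, mcrA among them, written from background knowledge.

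CPM is the count divided by the total of all features, times 1e+06, with no TMM scaling. The 68 genes follow from the rule in the opening. All 10983 features entered edgeR 4.0.16 in R 4.3.3 (TMM, filterByExpr with its default minimum count of 10, quasi-likelihood test, two-sided, genotype as the only term, Benjamini-Hochberg adjustment, called at an adjusted p under 0.05); 7852 were tested. Log2 fold changes come from that fit, and log2 ratios are of mean CPM. The fit was tested on simulated data. A count of 0 over a group allows 3 counts, which is 0.236 CPM in mcrA-deleted and 0.192 CPM in WT libraries. Floors and intervals cover counting error only.

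Members and lists were chosen with earlier results of these data known. Named are the 10 genes highest in WT, the 10 with the lowest ratio, those with a symbol, those in runs of at least 3, those at the thresholds, the genes beside those runs, and up to 3 genes of a list; others are named as chosen after their values were seen, and the 6 pairs and their neighbours were chosen in that way too. Between replicates, chi-square per degree of freedom was 9.97 to 54.1, where sampling noise alone gives about 1, so none was counted as a repeat. Alternatives included DESeq2 1.42.0. No column of values was left unmapped (0 columns).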

Additional observations from a re-analysis of the deposited data

How the results depend on the processing

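With the ratio limit at 1/2 of WT the rule gave 254 genes, 45 of them beside another, in 24 adjacent pairs of which 15 were divergent; with the limit at 1/8 it gave 29 genes, 6 beside another, and 4 pairs of which 3 were divergent. TMM or DESeq2 scaling of the CPM gave 80 genes, all 68 among them, a WT minimum of 5 CPM gave 78 and one of 20 CPM gave 52. The median log2 ratio of the 68 genes, -2.74, was -2.92 with TMM scaling, -2.57 with a pseudocount of 1 CPM and -2.94 to -2.53 with 1 library left out.

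Over all features, library size alone in place of TMM gave 639 genes lower and 1660 higher, against 1078 and 1265, so that 72.2% of the calls were higher in place of 54.0%; it moved the median log2 fold change by 0.17, and beside the 68 genes 8 were then lower and 19 higher. With 1 library left out, 618 to 1171 genes were called lower and 758 to 1496 higher, 6 to 12 neighbours lower and 11 to 23 higher, and 8 to 22 listed genes lower. The cause was not tested.

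The replicate number as a block gave 1170 genes lower and 1333 higher, and 12 neighbours lower and 18 higher. Deviations of same-numbered libraries correlated at 0.277, -0.0739 and 0.162, against -0.267 to 0.144 for libraries of different numbers. Not every library correlated best with its own number. With 3 libraries per genotype these values cannot settle whether equal numbers mark a shared batch, and nothing in the labels says so. Among the results recomputed, no alternative turned a direction that had been called. A comparison of similar proteins was not run, since no protein sequences were used here. Depth limits the genes near 0: for AN3259 and AN8134 the intervals span more than 10-fold.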
